A study of Mus musculus with 4 samples.

Results

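The immediate early genes are the first genes that a cell transcribes after a growth factor, a cytokine or a stress reaches it, and they need no new protein for it. Their RNAs are short-lived. The classical members encode transcription factors of the AP-1 group (Fos and Jun proteins, which bind DNA as dimers), the zinc finger factor Egr1 and Myc, together with proteins that end the response, such as the phosphatase Dusp1 and the RNA-binding protein Zfp36. In liver the same set is known for its induction when hepatocytes prepare to divide after tissue loss. The group described here holds 10 genes, Fos, Fosb, Jun, Junb, Egr1, Atf3, Ier2, Dusp1, Myc and Zfp36, out of 36161 gene names on the array. They were taken by name, with all their probes and spots, and the group was chosen by the measured M minus C differences of Fos, already known to be opposite in the sexes in these data. For Fos that direction is therefore a description, and the question is how far the other members share it.

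Liver RNA of C57BL/6J mice, labelled embryonic day 20, was hybridized to Agilent arrays of 60-base probes read in 1 colour (Cy3). Microsomic mice (M), which are of low body weight, were compared with controls (C) of normal weight, and no agent or engineered allele was involved. The female groups are named MF and CF and the male groups MM and CM. Each group has 1 array, whether its RNA came from a single animal or from several is not stated, and the methods, unlike the labels, speak of newborn C57BL/6 N mice and of independent replicate experiments in each group. The whole liver was taken, so fewer cells of a type and less RNA per cell cannot be told apart. A level below is the scaled signal, which is the processed signal of the probe divided by the 75th percentile of the signals of its array. Differences are log2 differences of scaled signals, and a gene was counted as higher or lower when it was over 1.5-fold apart. Since no group has a second array, differences between arrays carry no p-value and no error from replicates. The only error that could be measured is technical, from 266 probes printed at 10 spots of each array, whose median SD on the log2 scale ranged from 0.18 (MM) to 0.26 (CM). For single spots this gives a technical SD of 0.33 for an MF minus CF difference and of 0.31 for an MM minus CM difference. It covers the spread between spots within an array, and not that between animals, RNA preparations, labellings or arrays.

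The 4 arrays share a slide, with both M arrays in one column and both C arrays in another. Both female arrays lie in one row and both male arrays in another. Condition and slide column, and sex and slide row, therefore cannot be told apart. The 75th percentile of the signal lay between 628 and 925, and 56.1% to 65.3% of the spots were well above background. The MF array, on which the members were highest, stood apart in quality, with 916 spots flagged as non-uniform against 130 to 182 on the others and 22 saturated spots against 0 or 1. No member spot had either mark, and the part of this in the results was not tested. Of 8 hepatocyte markers, the 7 on the array were well above background everywhere, with a summed scaled signal of 5739 on MF, 5533 on CF, 4034 on MM and 5628 on CM. Other tissues stood out: 7 heart markers summed to 122 on CF and to between 0.813 and 2.19 on the other arrays, and 7 intestinal markers summed to 97.6 on MF and 100.4 on MM against 17.0 on CF and 12.1 on CM. Of the intestinal markers, 3 were well above background on all 4 arrays. All 3 were over 1.5-fold higher in MF vs CF, while in MM vs CM 2 were higher and 1 lower. Cdx2 was well above background on MF alone, at 0.872 times the 75th percentile. The part of these tissues in the results on the immediate early genes was not tested.

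All 10 members were well above background on all 4 arrays, none was saturated, and each was represented by a single probe. Fos was printed at 10 spots, Myc at 2 and the other 8 members at 1. Every member had its highest level on the MF array, whereas 25.8% of all 19303 genes detected above background on every array did. The lowest level was on MM for 5 members (Fos, Jun, Atf3, Dusp1 and Zfp36), on CF for Fosb, Junb and Myc, and on CM for Egr1 and Ier2.

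**Figure D1:**
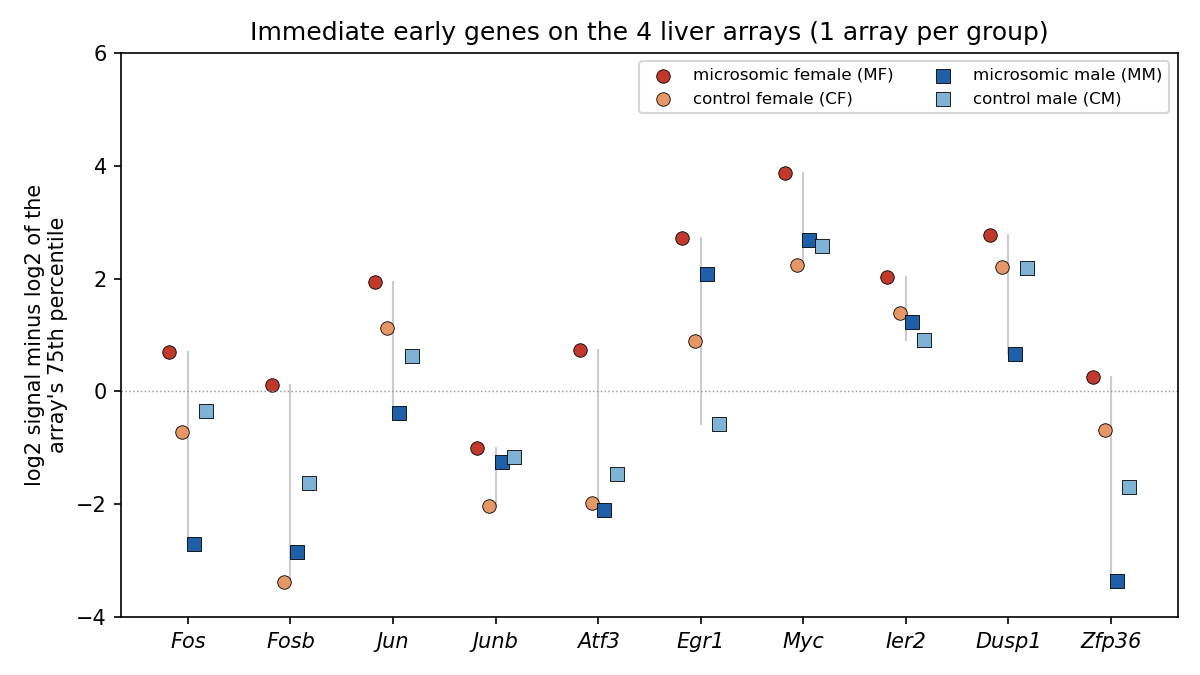
Level of each member on the 4 arrays, as log2 of the signal minus log2 of the 75th percentile of the array (1 array per group, no error bars). Circles are females and squares males, dark symbols microsomic and light symbols control. The MF circle is the top symbol of all 10 genes, and the MM square is the bottom one for Fos, Jun, Atf3, Dusp1 and Zfp36. Positions between genes are not comparable, since each probe has its own brightness.

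Fos encodes the AP-1 subunit that pairs with Jun proteins. Its probe lies on the plus strand at chr12:86817900-86817959 (mm9, the build of the array annotation). The scaled Fos signal was 1.62 on MF, 0.606 on CF, 0.154 on MM and 0.786 on CM, so the M arrays were the highest and the lowest of the 4 with both controls between them. MF was 2.67-fold above CF (log2 1.42), and CM was 5.12-fold above MM (log2 MM minus CM of -2.36). Fos is the only member with many spots, which show the spread of its values within an array. Its 10 spots read between 900 and 1657 on MF (median 1403), 285 and 617 on CF (median 512), 55.5 and 263 on MM (median 166), and 319 and 713 on CM (median 472), before scaling. After scaling, every MF spot was above every CF spot and every MM spot below every CM spot, while the spots of both controls overlapped. The software flagged 4 of the spots as outliers on 1 or more arrays, and they were left out on all arrays. The other 6 had a log2 scaled signal of 0.69 ± 0.12 (SD over spots, n = 6) on MF, -0.72 ± 0.49 on CF, -2.70 ± 0.73 on MM and -0.35 ± 0.26 on CM. On CF and MM these SDs exceeded the median SDs of 0.24 and 0.18 over the 266 probes. The lowest of the 6 spots on MM was at -4.06, and their median was -2.45. With the flagged spots kept, the log2 differences were 1.18 in females and -2.15 in males.

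**Figure D2:**
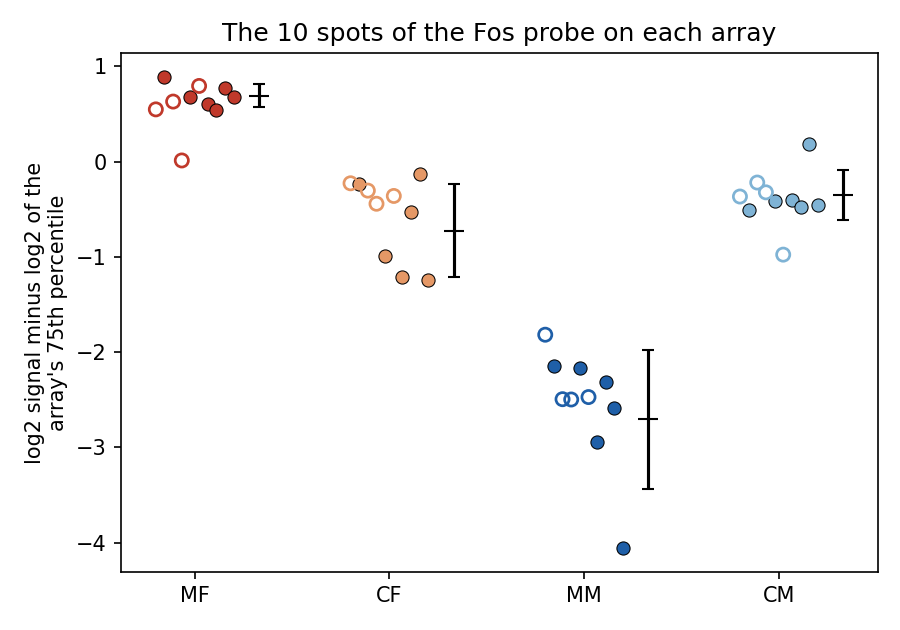
Log2 scaled signal of the 10 spots of the Fos probe on each array. Filled circles are the 6 spots used and open circles the 4 left out because of an outlier flag, and the bar beside them is the mean ± SD of the 6. The MF spots lie above all CF spots and the MM spots below all CM spots. Spots of an array share its RNA and are not replicates of the group.

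Fosb, the close relative of Fos, had the largest MF minus CF difference of the 10. Its scaled signal was 1.08 on MF, 0.0962 on CF, 0.139 on MM and 0.324 on CM. It was high on MF alone, 11.3-fold above CF (log2 3.49), and on MM it was 2.33-fold below CM (log2 -1.22). The control arrays differed too, with CM 3.37-fold above CF. Fosl1, a further Fos relative outside the 10, was well above background on MF alone. Atf3 encodes a stress-induced factor that dimerizes with Jun proteins. Its scaled signal was 1.67 on MF, 0.255 on CF, 0.232 on MM and 0.362 on CM, again with MF standing alone. Atf3 was 6.53-fold above CF on MF (log2 2.71). In males CM was 1.56-fold above MM (log2 MM minus CM of -0.64), which is near the threshold and under it when arrays were centred on their median, quantile-normalized or left unscaled, or when a trend with probe GC content or array position was removed.

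Jun, the partner of Fos in AP-1, had a scaled signal of 3.82 on MF, 2.18 on CF, 0.765 on MM and 1.54 on CM. It was 1.75-fold above CF on MF (log2 0.80) and 2.02-fold below CM on MM (log2 -1.01). The male difference was within 1.5-fold after normexp background correction (-0.39) and without scaling (-0.45). Junb, a Jun protein that can oppose Jun, read 0.497 on MF, 0.246 on CF, 0.419 on MM and 0.447 on CM. CF was low and the other arrays were alike, so that MF was 2.03-fold above CF (log2 1.02). The Junb difference of -0.09 between MM and CM was smaller than the technical SD, and it was positive in 5 of 8 other ways of scaling or selecting the data, up to 0.65 (over 1.5-fold) with normexp.

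Egr1, a zinc finger factor controlled by serum response factor (Srf), was the exception among the 10. Its scaled signal was 6.58 on MF, 1.85 on CF, 4.24 on MM and 0.669 on CM, with both M arrays above both controls. MF was 3.56-fold above CF (log2 1.83) and MM was 6.33-fold above CM (log2 2.66). Myc, which drives growth and ribosome synthesis, read 14.6 on MF, 4.73 on CF, 6.44 on MM and 5.98 on CM. MF was 3.09-fold above CF (log2 1.63), and its 2 spots on MF (11541 and 14756 before scaling) did not overlap those on CF (3515 and 2913). The Myc difference between MM and CM was 0.11, under the technical SD, and it was -0.53 after normexp background correction and 0.67, over 1.5-fold, without scaling. Ier2, a small nuclear protein induced with Fos, read 4.07 on MF, 2.63 on CF, 2.36 on MM and 1.88 on CM. It was 1.55-fold above CF on MF (log2 0.63), which fell within 1.5-fold after normexp (0.34). The male difference of 0.32 was within 1.5-fold, and over it with normexp (0.96), without scaling or with a GC trend removed.

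The products that end the response were low on MM. Dusp1 removes the activating phosphates of MAP kinases, and its scaled signal was 6.85 on MF, 4.64 on CF, 1.57 on MM and 4.54 on CM. The MM array stood below 3 arrays that were much closer to each other, 2.89-fold below CM (log2 -1.53). In females Dusp1 was 1.48-fold higher on MF (log2 0.56), just within the threshold and the only member within it, and it passed with median centring, without scaling or with a GC or position trend removed. Zfp36 (tristetraprolin) destabilizes cytokine and immediate early RNAs, and it read 1.20 on MF, 0.621 on CF, 0.0973 on MM and 0.308 on CM. It was 1.93-fold above CF on MF (log2 0.95) and 3.17-fold below CM on MM (log2 -1.67). The male difference of Zfp36 depended on the background correction and was -0.16 with normexp.

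In females the family was higher on the microsomic array throughout. On MF, 9 of the 10 members exceeded their CF level by over 1.5-fold and 0 were lower, and the remaining member, Dusp1, was higher by less. The 9 include Fos, whose direction was known when the group was chosen. Among all genes compared, 19.9% were over 1.5-fold higher and 21.1% lower in MF vs CF. The median log2 difference of the members was 1.22, from 0.56 (Dusp1) to 3.49 (Fosb), against a median of -0.08 over all genes. All 10 differences were positive, where 44.4% of the 19303 genes had a positive difference in MF vs CF. They were also positive under each of the 8 other ways of scaling or selecting the data. Of these ways, the mean over probes could change no member, and keeping flagged spots could change Fos alone.

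In males the family was divided. In MM vs CM, 6 members were over 1.5-fold lower (Fos, Fosb, Jun, Atf3, Dusp1 and Zfp36), 1 was higher (Egr1) and 3 were within 1.5-fold (Junb, Ier2 and Myc), whereas 23.1% of all genes were lower and 17.7% higher. This split was less one-sided in other settings, with 4 lower and 3 higher after normexp background correction (Junb, Egr1 and Ier2 higher) and without scaling (Egr1, Ier2 and Myc higher). The median of the members, Fos included, was -0.83, from -2.36 (Fos) to 2.66 (Egr1), against -0.03 over all genes. Fos, Fosb, Jun, Atf3 and Zfp36 were thus over 1.5-fold higher in females and over 1.5-fold lower in males, 5 of 10 members including Fos itself, or 4 of the other 9. This pattern was found for 5.81% of all genes, and an opposite change in either order for 9.85%. Egr1 was the 1 member over 1.5-fold apart in the same direction in both sexes, against 6.98% of all genes. The opposite change was thus shared by Fosb, Jun and Zfp36 and, near the threshold, by Atf3, but not by Junb, Egr1, Ier2 or Myc. Dusp1 was opposite in sign without passing 1.5-fold in females. With a 2-fold threshold the opposite pattern was left for Fos and Fosb (2 members), and after normexp background correction for Fos, Fosb and Atf3 (3 members).

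**Figure D3:**
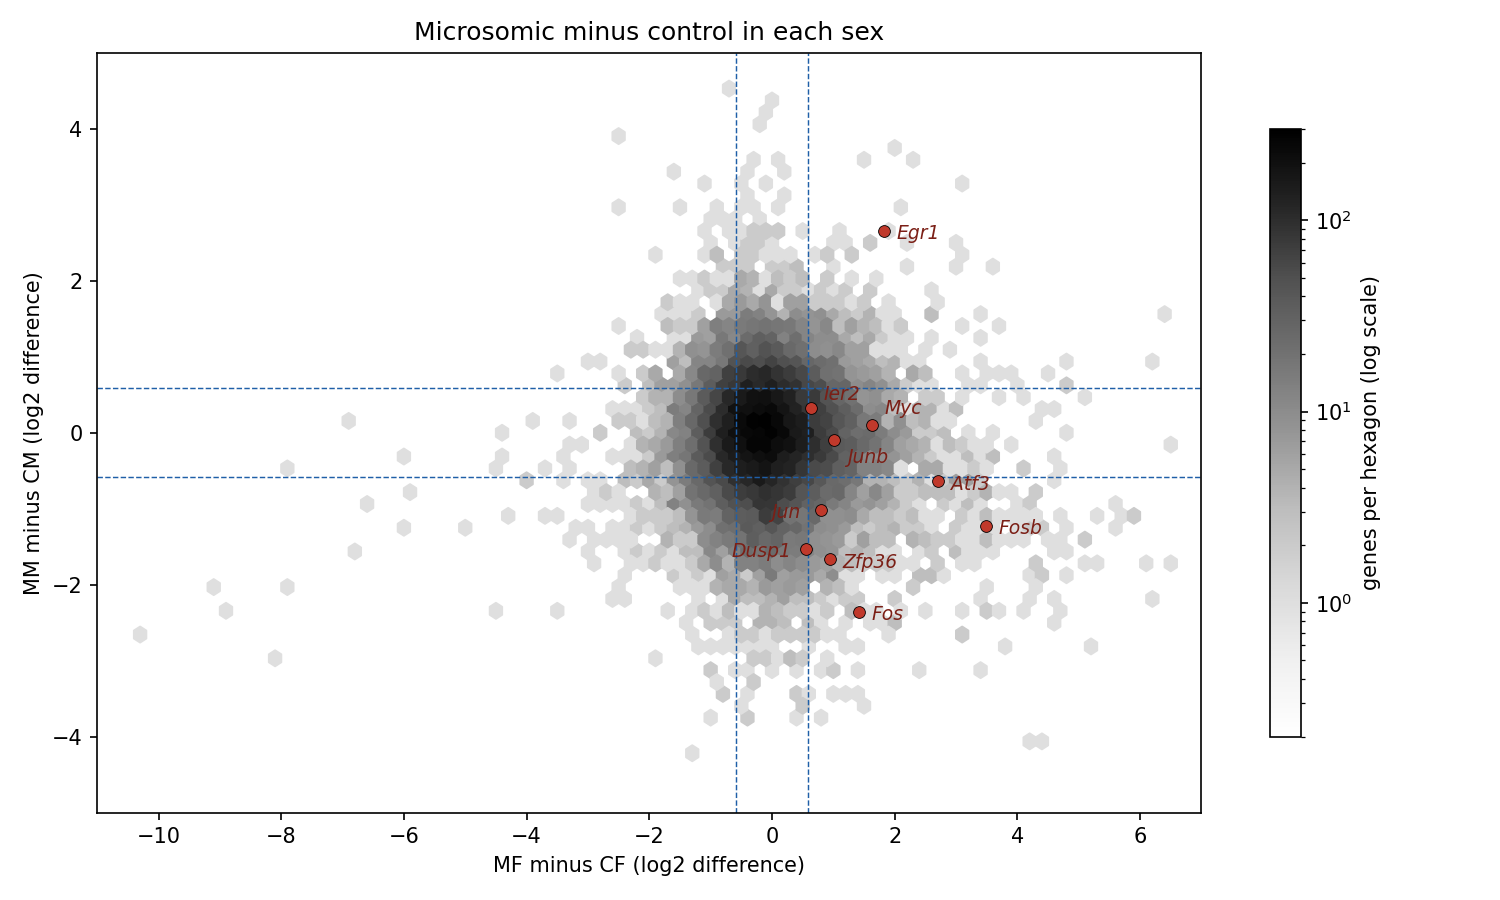
Log2 difference of M minus C in females (horizontal axis) and in males (vertical axis) for the 19303 genes detected above background on every array (grey hexagons, darker for more genes) and for the 10 members (red points). Dashed lines mark 1.5-fold. All members lie to the right of 0, Egr1 alone lies in the upper right beyond both lines, and Fos, Fosb, Jun, Atf3 and Zfp36 lie in the lower right beyond both lines.

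The sexes were also compared within each condition, which reuses the same 4 arrays. In controls, 2 members were over 1.5-fold higher on CM than on CF (Fosb and Junb) and 2 were lower (Egr1 and Zfp36), where 26.6% of all genes were higher and 19.7% lower in CM vs CF. The median of the members was 0.15. In microsomic mice, 9 members, Fos included, were over 1.5-fold lower on MM than on MF and 0 were higher. Among all genes, 20.5% were lower and 28.9% higher in MM vs MF. Junb was the remaining member, with a log2 difference of -0.25. The differences were largest for Zfp36 (12.3-fold), Fos (10.5-fold), Fosb (7.81-fold) and Atf3 (7.17-fold), and the median log2 difference was -2.22, against 0.08 over all genes. The medians of the members thus differed more between the sexes in the microsomic pair of arrays than in the control pair, which was not tested.

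A change common to both sexes can be tested with limma on all 4 arrays, with condition and sex as factors and 1 residual degree of freedom. No gene of the 19303 passed a Benjamini-Hochberg adjusted p of 0.05 (0 genes, smallest adjusted p 0.964, 853 genes with an unadjusted p under 0.05), and all 10 members had an adjusted p of 0.995. Egr1 had the largest mean difference of the 10, a log2 difference of 2.25 ± 0.44 (SE) with M above C in both sexes, and it failed the adjustment like the rest. The Fos difference had a mean of -0.47 ± 0.81 (SE), since the sexes oppose each other. Whether the M minus C difference itself differs between the sexes cannot be tested, because that term would use the last degree of freedom.

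Beyond the 10, a list of 68 other immediate early and early response genes was examined, of which 67 were on the array and 59 were well above background on all 4 arrays. In MF vs CF, 34 of the 59 (57.6%) were over 1.5-fold higher and 5 (8.47%) lower, with a median log2 difference of 0.78, so the higher level on MF was not limited to the 10 members. The largest of these were Dusp5 (2.46), a phosphatase for ERK kinases, Maff (2.17), a small Maf factor, and Nr4a2 (2.07), an orphan nuclear receptor. The lowest were Hes1 (-1.31), a Notch target, Ctgf (-1.02), a matrix protein, and Egr3 (-0.88). The close relatives Fosl2 and Jund were at 1.55 and 0.62. In MM vs CM, 12 (20.3%) were higher and 14 (23.7%) lower, shares close to those over all genes, with a median of -0.03. This median was positive, up to 0.53, with median centring, quantile normalization, no scaling, or removal of a GC or position trend. With normexp it was -0.27.

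In 9 of the 59 genes (15.3%) the sexes were over 1.5-fold apart in opposite directions, each time higher on MF and lower on MM, against 5.81% of all genes with that order. Here and elsewhere, the shares of all genes over 1.5-fold apart also count genes well above background on only 1 array of a pair, unlike the 59. The growth arrest gene Gadd45g had a scaled signal of 28.5 on MF, 8.17 on CF, 2.09 on MM and 5.81 on CM, with log2 differences of 1.80 in females and -1.47 in males. Nfkbia, the inhibitor of NF-kappaB, read 31.2 on MF, 17.4 on CF, 12.5 on MM and 42.1 on CM (0.84 and -1.75). The other 7 were Csrnp1 (1.44 and -1.15), Nr4a1 (1.81 and -0.78), Sik1 (1.45 and -1.08), Bhlhe40 (1.33 and -1.17), Tnfaip3 (1.29 and -0.90), Ccnl1 (0.87 and -0.88) and Sgk1 (0.59 and -0.93). Like Egr1, 12 genes of the list (20.3%, against 6.98% of all genes) were over 1.5-fold apart in the same direction in both sexes, among them Phlda1 (1.34 and 2.04) and Cited2 (1.09 and 1.07), both higher in M, and Gadd45b (-0.79 and -1.76), lower in M. In males the highest difference after Phlda1 and Cited2 was that of Ier3 (0.92). Of the 59, 40 (67.8%) had their highest level on MF.

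**Figure D4:**
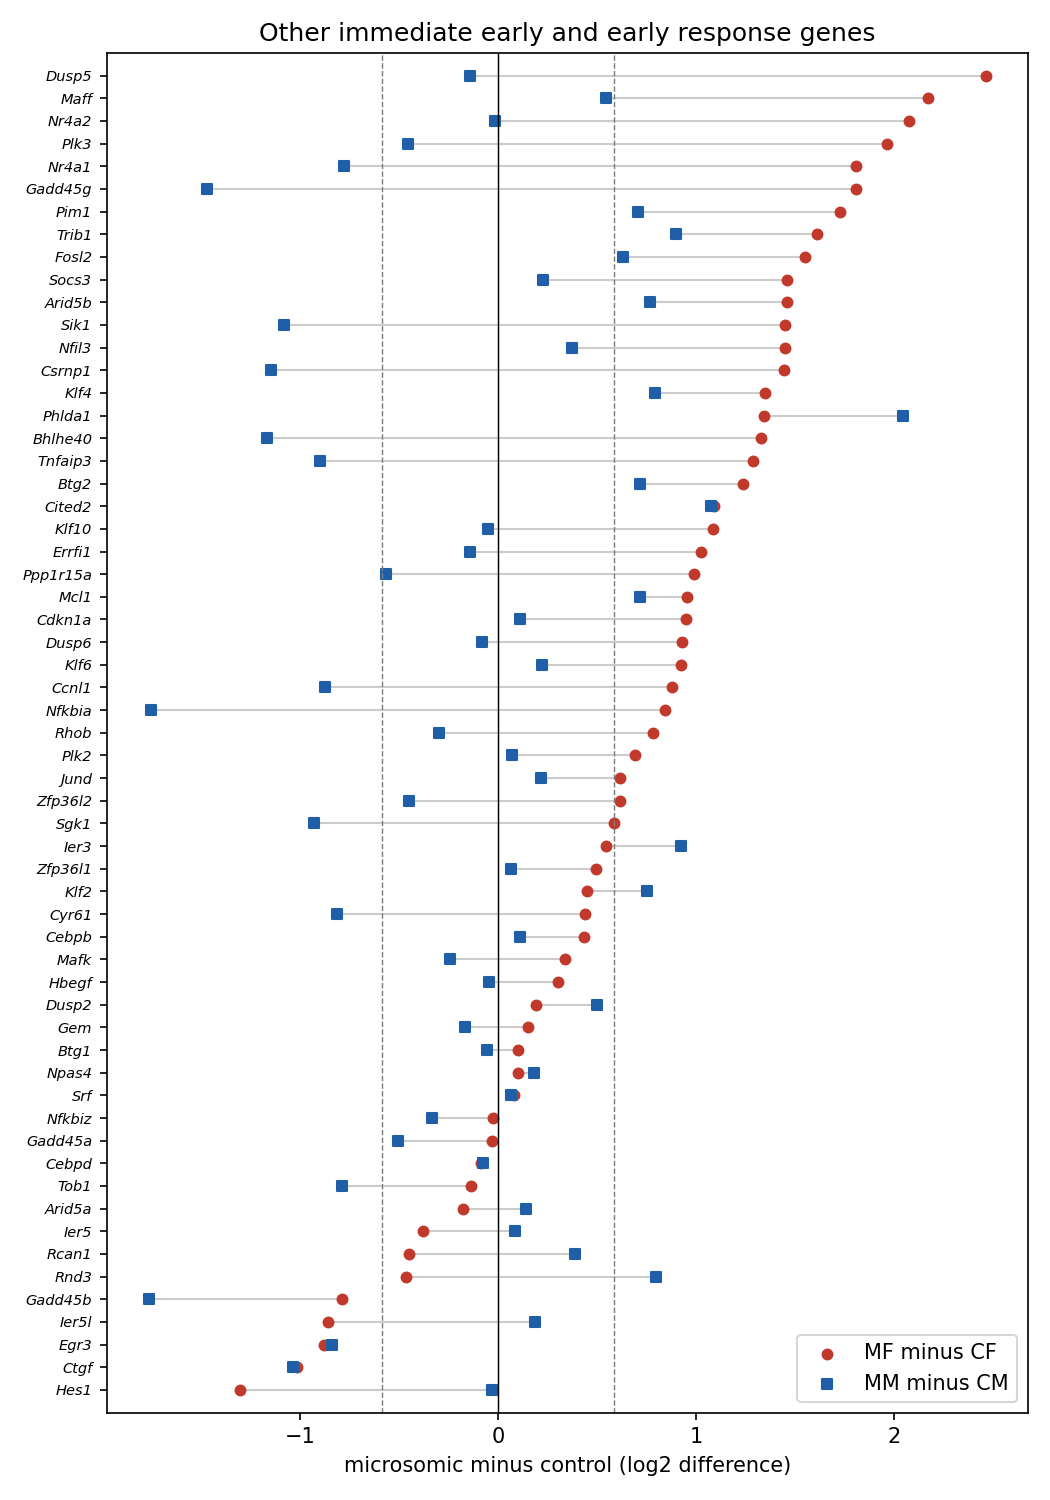
Log2 difference of M minus C in females (red circles, MF minus CF) and males (blue squares, MM minus CM) for the 59 other immediate early and early response genes well above background on all 4 arrays, ordered by the female difference. Dashed lines mark 1.5-fold. In females 34 genes lie beyond the right line and 5 beyond the left one, while in males 12 and 14 do.

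The RNAs of kinases and factors upstream of these genes showed no such shift as a set, and the activity of the proteins was not measured. Of 30 genes for MAP kinases, their activators and the factors that bind the immediate early promoters, 3 were over 1.5-fold higher and 4 lower in MF vs CF (median 0.03), and 4 were higher and 2 lower in MM vs CM (median 0.18). None was over 1.5-fold apart in opposite directions (0 of 30, against 9.85% of all genes). Srf, the factor that binds the CArG box, was at 0.08 in females and 0.06 in males. Its partner Elk1 was at 1.31 and -0.40, the kinases Map2k3 and Mapk3 (ERK1) at 1.25 and 1.21 in females, and Mapk9 and Rps6ka5 at 1.52 and 1.06 in males, with Elk4 at 0.73. Of 16 reported targets of AP-1 or Myc, 5 (31.25%) were higher and 0 lower in MF vs CF (median 0.12). In MM vs CM, 4 (25.0%) were higher and 4 (25.0%) lower (median 0.11), with the same shares over all genes to set beside them. The urokinase receptor Plaur was at 1.70 in females and 0.59 in males, Il6 at 1.29 and 1.41, the Myc target Npm1 at 0.16 and 1.37, and the cyclin Ccnd1 at 0.49 and 0.15.

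Some markers of other cell types differed between the arrays together with the members. Of 14 granulocyte and macrophage markers, 13 exceeded CF by over 1.5-fold on MF (median 0.91) and 12 had their highest level on MF. Their summed scaled signal was 2038 on MF, 965 on CF, 993 on MM and 1293 on CM. Elane, the neutrophil elastase, was at 196 on MF and between 24.4 and 50.9 on the other arrays, and Csf1r, the receptor that marks macrophages, was at 124 on MF and between 27.7 and 33.5 elsewhere. In MM vs CM the median of these markers was 0.00, with 1 higher and 3 lower. Of 8 stellate and smooth muscle markers, 4 were higher and 1 lower in MF vs CF, and 0 were higher and 5 lower in MM vs CM, with medians of 0.57 and -0.71 and a summed scaled signal of 64.2 on MF, 63.4 on CF, 41.9 on MM and 69.2 on CM. The 6 endothelial markers were detected throughout, with medians of -0.34 and -0.17, and the 10 erythroid markers had medians of -0.52 and -0.21. The 7 hepatocyte markers had a median of 0.21 in MF vs CF and of -0.61 in MM vs CM, where 0 were higher and 4 lower, as 6 members were. Exocrine pancreas markers summed to between 2.25 and 4.70 on the 4 arrays, and the 3 of them detected on every array had medians of 0.69 and -0.75, 2 of the 3 being higher on MF and lower on MM. Higher on MF and lower on MM, each over 1.5-fold, were 3 of the 14 granulocyte and macrophage markers. So were 2 of the 8 stellate and smooth muscle markers. The same held for 1 of 7 hepatocyte, 1 of 10 erythroid and 0 of 6 endothelial markers, against 5.81% of all genes. The part of these cells in the values of the immediate early genes was not tested.

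By Euclidean distance of mean-centred log2 values over the 4 arrays, the genes nearest to Fos among the other 19302 were a lincRNA probe on chromosome 19 (distance 0.17), Pnpla3 (0.42), Cd4 (0.42), Rapsn (0.43) and BC031453 (0.58). The probes of Cd4, Rapsn and BC031453 hold 4, 9 and 11 stretches of 5 bases made of C and T with at least 3 C, against 0 or 1 in the probes of the members. Those of the lincRNA and Pnpla3 hold 2 and 0, and those of Nr4a1 and Fosl1, outside the members, hold 6 and 4. Such stretches were not counted over all probes, and their part in the values was not tested. No member was among the first 5. Dusp1 had rank 36 (distance 0.95), Zfp36 rank 43 and Jun rank 54 (1.05), followed by Atf3 at 413, Fosb at 1607, Myc at 2711, Ier2 at 3659 and Junb at 7178. Egr1 was at rank 18536, near the far end. These ranks rest on 4 arrays and describe them alone.

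Promoters of 5 members are shown because Fos, Fosb, Atf3 and Dusp1 are known targets of CREB-type factors, and Zfp36 of Srf. RefSeq (GRCm38.p6) promoter sequence was matched by symbol for 7 of 10 members, and not for Egr1, Ier2 and Myc. The 150 bases before the start of transcription were searched on both strands for TGACG, the core of the CREB site, for TGACGTCA, the full site that contains it, for the CArG box bound by Srf, and for TGANTCA, the AP-1 site. TGACG was found in 5 of 7 members (Fos, Fosb, Junb, Atf3 and Dusp1) and in 13.3% of 32851 promoters of the table. The full TGACGTCA was found in Dusp1 (1 of 7, against 1.36%), the CArG box in Zfp36 (1 of 7, against 0.916%), and TGANTCA in 0 of 7, against 4.24%. Sequence farther upstream was not searched, so the absence of a site holds for these 150 bases alone. In the sequences below, written 5′ to 3′ on the strand of the gene, capitals mark TGACG or its complement in the first 4 and the CArG box in Zfp36.
Fos (chr12:85473740-85473889, plus strand): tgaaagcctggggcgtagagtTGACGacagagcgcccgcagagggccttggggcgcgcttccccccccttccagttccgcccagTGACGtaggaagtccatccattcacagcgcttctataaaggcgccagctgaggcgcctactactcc
Fosb (chr7:19310046-19310195, minus strand): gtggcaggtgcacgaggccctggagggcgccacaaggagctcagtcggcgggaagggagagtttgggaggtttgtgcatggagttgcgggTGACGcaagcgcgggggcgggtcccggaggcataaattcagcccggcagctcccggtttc
Atf3 (chr1:191183334-191183483, minus strand): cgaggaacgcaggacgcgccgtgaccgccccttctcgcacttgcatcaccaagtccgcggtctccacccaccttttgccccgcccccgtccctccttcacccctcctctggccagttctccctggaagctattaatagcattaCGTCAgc
Dusp1 (chr17:26508473-26508622, minus strand): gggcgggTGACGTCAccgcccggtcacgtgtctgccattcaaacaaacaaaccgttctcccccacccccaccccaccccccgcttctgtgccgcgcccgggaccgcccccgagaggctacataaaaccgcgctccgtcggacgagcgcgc
Zfp36 (chr7:28379229-28379378, minus strand): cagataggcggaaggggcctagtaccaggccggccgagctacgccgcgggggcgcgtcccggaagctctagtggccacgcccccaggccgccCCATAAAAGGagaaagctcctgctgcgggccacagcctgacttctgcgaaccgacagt
The sites start at -129 and -66 in Fos, -60 in Fosb, -7 in Atf3 (as CGTCA), -143 in Dusp1 and -58 in Zfp36, counted from the start of transcription. Of the members with opposite differences in the sexes, Fos, Fosb and Atf3 held TGACG and Jun and Zfp36 did not, and Junb, whose male difference was -0.09, held it too. A match of letters is a description of the sequence and no evidence of binding.

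The member values were recomputed in 8 other ways, which changed how many passed 1.5-fold more than they changed directions. Not all of these could move a value. The mean over probes could change no member, since each has a single probe, and keeping flagged spots could change Fos alone. The female differences kept their sign for all members. The male differences kept their sign for all members but Junb and Myc, which ran up to 0.65 and from -0.53 to 0.67.

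**Figure D5:**
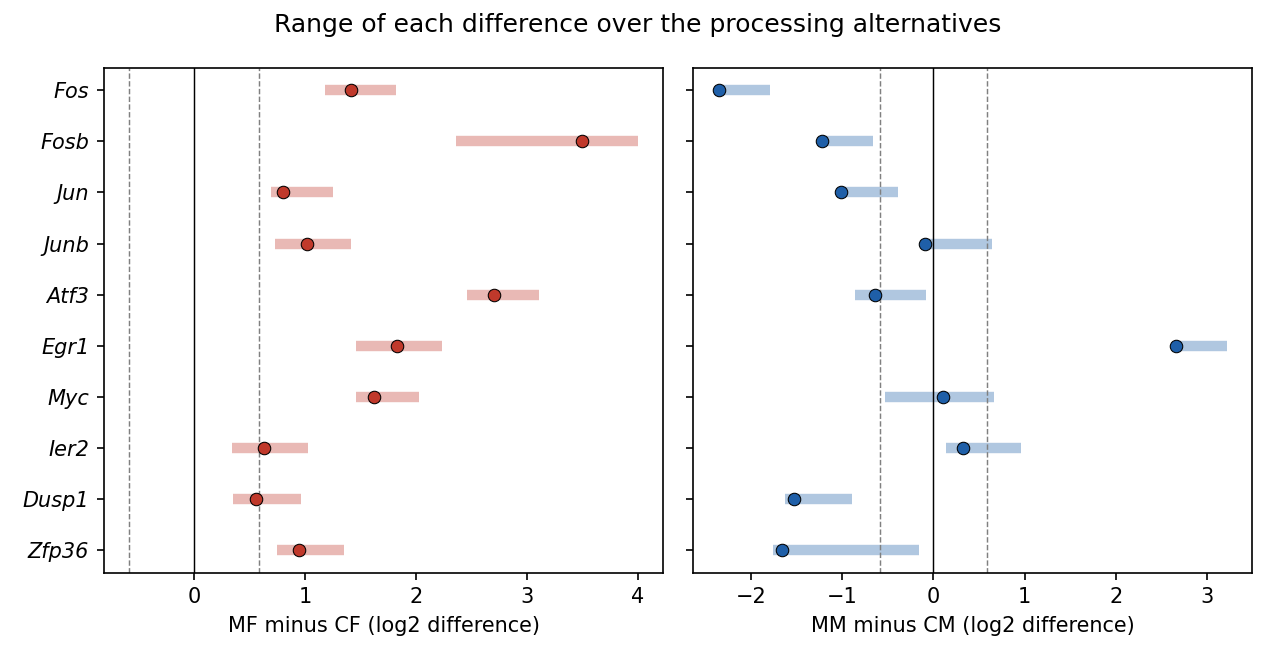
Log2 difference of each member in females (left, MF minus CF) and males (right, MM minus CM). Points are the values of the report, bars run from the lowest to the highest value over these and 8 other ways of scaling or selecting the data, and dashed lines mark 1.5-fold. All bars on the left lie above 0, and on the right those of Junb and Myc cross it.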

How the data were processed

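The authors made the deposited values by scanner software (Agilent Feature Extraction 10.7.3.1): the processed signal of a spot is a linear intensity after subtraction of a background surface and division by a detrending factor, not normalized between arrays. It was found to be the same in the value table of the series (62976 spots). Each log2 signal was taken relative to the 75th percentile of its array, over 59305 non-control spots. Any spot flagged as an outlier on 1 or more arrays was removed from all 4 (1754 spots), the rest were averaged by probe, and the brightest probe stood for its gene. Comparison of a pair of arrays required a signal well above background on at least 1 of them, with a dim signal replaced by a limit. limma 3.58.1 (R 4.3.3) was fitted to the 19303 genes detected on every array and checked on simulated data. The 3 largest rises and falls of the wider list in each comparison, up to 10 of its genes with opposite changes, the 5 genes nearest to Fos, and of the upstream and target lists the 3 largest differences in each comparison plus Srf, Elk1 and Ccnd1 are named, except a gene that is not reported here; Fosl1, Fosl2, Jund and the marker genes were named after their values were seen. The members and lists were chosen with earlier results of these data known. Alternatives were median centring, quantile normalization, normexp (offset 50) with quantile normalization, no scaling, other filters on dim probes, flagged spots kept, the mean over probes and a 2-fold threshold, for limma also no sex term, an intensity trend and the threshold of the methods. Removal of a trend with probe GC content or array position was added after seeing the data. The number of arrays limits the precision.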

Additional observations from a re-analysis of the deposited data

Results flagged for a closer look

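For 5 members the log2 difference of M minus C had opposite directions in the sexes, over 1.5-fold in each. The female minus the male difference was 3.77 for Fos, 4.72 for Fosb, 1.82 for Jun, 3.35 for Atf3 and 2.61 for Zfp36. These differences between the sexes were not tested, since 1 array per group leaves no degree of freedom for them, and the opposite direction of Fos was the reason for which the members were chosen.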

How the results depend on the processing

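The count of members over 1.5-fold apart was 8 to 10 in MF vs CF and 6 or 7 in MM vs CM under the alternatives of scaling, background, filter and spots, against 9 and 7, and 6 in each with a 2-fold threshold. In MM vs CM the split of 6 lower and 1 higher became 4 lower and 3 higher with normexp and without scaling. The count with opposite directions in the sexes moved from 5 to 3 with normexp and to 2 with a 2-fold threshold, and was 4 with quantile normalization and without scaling. With median centring or a GC or position trend removed it stayed at 5, with Dusp1 in the place of Atf3. Without scaling, the median of the wider list moved from 0.78 to 1.18 in MF vs CF and from -0.03 to 0.53 in MM vs CM, and limma called 10 genes (9 higher and 1 lower in M, no member) in place of 0. Leaving out the scaling shifts every gene by 0.40 in MF vs CF and 0.56 in MM vs CM, and centring on the median by 0.10 and 0.24. The threshold of the methods is an unadjusted p under 0.01 with a fold over 1.5, used there on pairs of groups. Applied to the limma fit on all 4 arrays, without adjustment for the 19303 genes tested, it called 163 genes (72 higher and 91 lower). Egr1 was the 1 member among them. Of 160 single values of members, 123 moved by less than the technical SD and 37 by more. The 123 include values that could not move, namely all with the mean over probes and, except for Fos, those with flagged spots kept. After normexp, 9 of 10 members had their highest level on MF. No paired analysis was possible because each group has 1 array and the labels carry no replicate numbers, and for the same reason no replicate could be left out.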
